A study of Mus musculus with 32 samples.

Results

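Nonclassical MHC class I genes were followed in macrophages after deletion of Trex1. The gene encodes TREX1, the DNA exonuclease that keeps cytosolic DNA from activating cGAS. The genes were H2-T10, H2-T22, H2-T23 and H2-T24 of the T region, H2-Q4, H2-Q5, H2-Q6 and H2-Q7 of the Q region, and H2-M3 of the M region. They were chosen by name, with earlier results of these data known. Each is the row of the count table whose Ensembl identifier, without its version, carries that symbol in GENCODE vM39. This gave 9 of 54281 rows, and all 9 passed the filter on low counts that left 15257 genes for testing.

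The cells were bone marrow-derived macrophages (BMDMs), which are grown from mouse bone marrow in culture. All of them carried R26 CreERT2, a Cre recombinase expressed from the Rosa26 locus that becomes active when 4-hydroxytamoxifen (4-OHT) binds to it. In Trex1 FL/FL cells both Trex1 alleles are flanked by loxP sites and can be removed, whereas Trex1 WT/FL cells keep a wild type allele. Part of the cells of each genotype received 4-OHT at 2 µg/ml over 22 h and the rest stayed untreated, and RNA was taken 1, 2, 3 or 4 days after the 4-OHT had been withdrawn. The Trex1 FL/FL cells that received 4-OHT are called deleted cells here and the Trex1 WT/FL cells that received it treated controls, while the others are called untreated FL/FL and untreated WT/FL cells. Every combination of genotype, treatment and day had 2 libraries, which gives 32 libraries in 16 groups with totals of 35120505 to 63760884 counts. The labels name neither age, strain, animal, culture nor batch, so p-values measure only the spread between the libraries of a group, which may be technical.

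MHC class I molecules are heavy chains that pair with beta-2 microglobulin, encoded by B2m, at the cell surface. The classical heavy chains of these cells, H2-K1 and H2-D1, present peptides to CD8 T cells and are highly polymorphic. Nonclassical heavy chains vary little between individuals and are read by more restricted partners, such as NK cell receptors or small T cell subsets. Type I interferon is known to raise the transcription of many class I genes together with the machinery that loads peptides onto them.

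Trex1 itself matched the labels. It had 0 counts in 6 of the 8 libraries of deleted cells, which allows a level of at most 0.0513 to 0.0908 CPM (counts scaled to a total of 1e6), and 14 and 9 counts in the libraries of day 2. Treated controls had Trex1 at 12.2 to 79.4 CPM and untreated cells at 28.6 to 143.7 CPM over the 4 days. Within WT/FL cells, Trex1 was lower after 4-OHT on each day, by log2 fold changes of -1.16 ± 0.11, -1.06 ± 0.10, -0.86 ± 0.10 and -0.80 ± 0.10 on days 1 to 4 (adjusted p at most 0.000197, edgeR), which leaves 0.448 to 0.575 of the untreated level, so the treated controls had reduced rather than full Trex1. Among defining markers, those of macrophages were present in all libraries (Csf1r at 1313 to 6240 CPM, Adgre1 at 952 to 4984 CPM). Of 8 markers of T and NK cells, Cd8a, Ncr1 and Gzma were at 0 in all libraries, and none exceeded 0.150 CPM. The 10 macrophage markers summed to less in deleted cells than in treated controls on the days on which the members differed: 27830 to 29940 against 33530 to 35480 CPM on day 2, 40030 to 40370 against 47190 to 49740 on day 3, and 30520 to 32440 against 32450 to 33200 on day 4. On day 1 they overlapped, at 15730 to 17570 and 17030 to 17050 CPM. Lyz2 was the largest part of these sums, at 11130 to 33990 CPM over all libraries, so they do not show that each marker was lower. The time course of Fcgr1, another of these markers, lay close to that of H2-T22, a member that was higher in deleted cells. The part of the lower sums in the members' differences was not tested. In bulk RNA, fewer cells with a transcript and less of that transcript per cell cannot be told apart.

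All 9 genes lie on chromosome 17 and are annotated as protein coding (GRCm39, positions counted from 1). H2-Q4 spans chr17:35598586-35604274, H2-Q5 chr17:35613102-35616776, H2-Q6 chr17:35643777-35655332 and H2-Q7 chr17:35658131-35662749, all on the plus strand. H2-T24 (chr17:36314363-36331485), H2-T23 (chr17:36340229-36345571), H2-T22 (chr17:36348020-36353650) and H2-T10 (chr17:36426768-36432357) follow on the minus strand. H2-M3 lies further along at chr17:37581106-37585384 on the plus strand. RefSeq classes H2-T10 and H2-Q5 as transcribed pseudogenes, so that reading them as protein coding rests on the GENCODE annotation alone.

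These genes arose by duplication, and reads from a copy can be assigned to its relative. The extent was measured as the share of a gene's 31-base words, over all its annotated transcripts, that also occur in another annotated gene on either strand. This share was 64.2% for H2-T10, 62.0% for H2-T22, 64.9% for H2-Q5, 56.4% for H2-Q4, 52.2% for H2-Q6 and 40.95% for H2-Q7. It was lower for H2-T23 (29.3%) and H2-T24 (19.2%), and H2-M3 was nearly free of shared words (4.33%). The closest pair was H2-T10 and H2-T22, with 47.5% of the words of H2-T10 also in H2-T22 and 43.0% in the other direction. In the Q region, 43.2% of the words of H2-Q5 were in H2-Q7 and 34.7% in H2-Q6, while H2-Q4 and H2-Q6 had 22.2% and 21.7% of their words in common. The classical gene H2-K1 held 13.3% of the words of H2-Q5 and 11.8% of those of H2-Q4, while among the T region genes H2-T23 had the largest share of its words in H2-K1 (4.58%). For H2-D1, the other classical gene, these shares were 10.95% of H2-Q5 and 8.58% of H2-Q4. H2-Q10, which is no member and had 9 to 186 counts in any library, held 20.6% of the words of H2-Q7 and 20.2% of those of H2-Q5. Values for H2-T10, H2-T22 and the Q genes are therefore uncertain in how they divide between copies, and H2-M3 is the member for which this matters least. Antisense RNAs overlap some members: A930015D03Rik, with 26.0% of the words of H2-T22, had only 2 to 34 counts in any library, and BC023719, with 26.0% of the words of H2-T10, had 0 to 5. The counting was not stated to use the strand, so such reads could not be told apart.

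**Figure D1:**
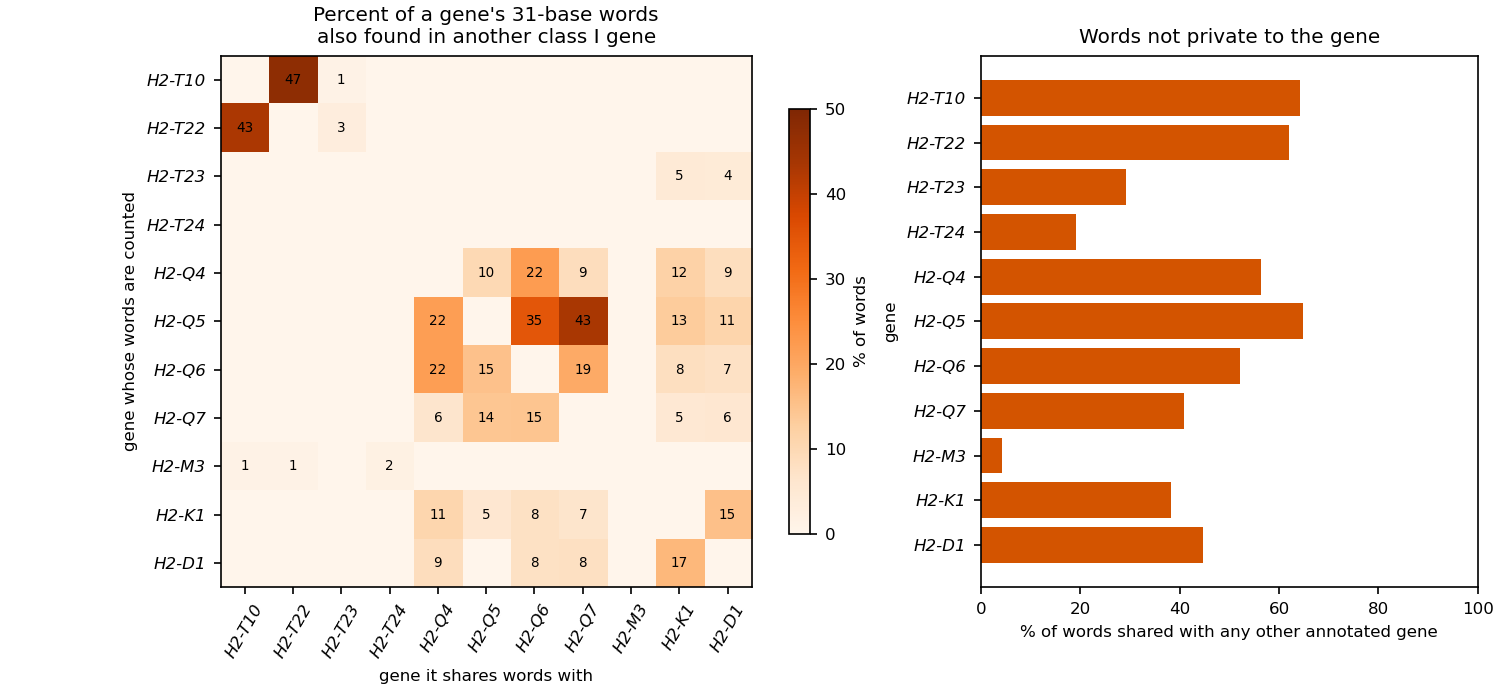
Left, percent of the 31-base words of each gene (rows) that also occur in another class I gene (columns), with values of 1 or more printed. For each row only the genes sharing the most words were drawn, so a blank cell can hold a share that is not shown. Right, percent of words found in any other annotated gene, from 4.33% for H2-M3 to 64.9% for H2-Q5.

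On day 1 the levels of the members differed widely from gene to gene, and no member passed the test between the genotypes. Compared per kilobase of exon length, H2-T23 stood highest in deleted cells at 18.7 CPM per kilobase, followed by H2-M3 at 12.4, H2-T22 at 11.3 and H2-Q4 at 9.72 CPM per kilobase. H2-T24 and H2-T10 were at 1.77 and 0.893 CPM per kilobase, and H2-Q5, H2-Q7 and H2-Q6 were lowest at 0.406, 0.256 and 0.221 CPM per kilobase. For scale, the classical genes H2-K1 and H2-D1 were at 202.7 and 374 CPM per kilobase in the same cells, far above every nonclassical member. On day 4 the order had changed. H2-T23 (394.4 CPM per kilobase), H2-T22 (221.9) and H2-Q4 (178.1) led, H2-Q7 (119.5) and H2-Q6 (75.2) had moved above H2-M3 (58.4), and H2-T24 (42.6), H2-Q5 (26.4) and H2-T10 (10.9) were lowest.

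H2-T23 encodes Qa-1, which presents peptides from the leader sequences of other class I chains to the CD94/NKG2A receptor of NK cells. In deleted cells it stood at 63.4 and 64.9 CPM on day 1, 627 and 639 on day 2, 1241 and 1132 on day 3, and 1394 and 1309 on day 4. In treated controls the values were 55.4 and 56.9 on day 1, 383 and 322 on day 2, 617 and 678 on day 3, and 388 and 418 CPM on day 4. The groups were separate on days 2 to 4, with both libraries of deleted cells far above both controls. The genotypes differed after 4-OHT by 0.84 ± 0.12 (SE) on day 2, 0.87 ± 0.12 a day later and 1.75 ± 0.12 at the end on the log2 scale, the last a 3.35-fold difference (edgeR quasi-likelihood test, Benjamini-Hochberg adjusted p = 5.36e-10).

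H2-T22 and H2-T10 are non-peptide-binding molecules recognized by a subset of gamma delta T cells. In deleted cells H2-T22 was at 38.1 and 39.4 CPM on day 1, 353 and 364 on day 2, 696 and 667 on day 3, and 758 and 762 on day 4. Treated controls had 36.6 and 38.2, 169.6 and 154.2, 254 and 311, and 140.9 and 166.4 CPM on the same days. The day 4 difference of H2-T22, at a log2 value of 2.31 ± 0.09 (SE) or 4.95-fold, had the lowest adjusted p among the members (1.36e-16, edgeR). H2-T10 was much less abundant, reaching 37.3 and 37.0 CPM in deleted cells against 9.08 and 10.42 CPM in controls by day 4, a log2 fold change of 1.93 ± 0.13. With H2-T10, H2-T22 and the nearly silent H2-T9 (0 to 4 counts) added into 1 row, the day 4 log2 fold change was 2.29, close to that of H2-T22 itself.

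H2-T24 levels on days 3 and 4 were close to each other in deleted cells. The gene was at 8.94 and 8.34 CPM on day 1, 166 and 172 on day 2, 219 and 219 on day 3, and 213 and 204 on day 4 in deleted cells. Treated controls had 5.93 and 6.87, 103.9 and 85.0, 122.5 and 146.0, and 66.1 and 74.2 CPM. On days 2, 3 and 4 the genotypes differed by 0.84 ± 0.09, 0.71 ± 0.09 and 1.57 ± 0.09 on the log2 scale. Its day 1 log2 fold change of 0.43 ± 0.11, with no overlap between the libraries, did not pass the test (adjusted p = 0.753, edgeR).

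H2-Q6 and H2-Q7 encode Qa-2, which is held in the membrane by a lipid anchor, and they were the members with the widest range of levels. H2-Q7 was at 0.834 and 1.35 CPM on day 1, 15.5 and 13.1 on day 2, 252 and 249 on day 3, and 514 and 507 on day 4 in deleted cells. Treated controls had 0.932 and 1.30, 5.36 and 5.67, 65.2 and 94.6, and 109.0 and 118.6 CPM. For H2-Q7 the log2 differences between the genotypes were 1.38 ± 0.18, 1.65 ± 0.14 and 2.16 ± 0.14 on days 2, 3 and 4. Across all 32 libraries its highest level was 616-fold its lowest, against 504-fold for H2-Q6 and 113-fold for H2-Q5, and the lowest levels of these 3 genes rest on few counts (from 23 for H2-Q5, 31 for H2-Q6 and 40 for H2-Q7).

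H2-Q6 had the largest genotype difference of the 9 genes. It was at 0.667 and 0.846 CPM on day 1, 8.62 and 9.27 on day 2, 137 and 143.5 on day 3, and 249.5 and 265 on day 4 in deleted cells. Treated controls had 0.526 and 1.14, 3.31 and 3.12, 16.3 and 33.0, and 27.8 and 33.2 CPM. The log2 fold change was 1.48 ± 0.31 on day 2 (adjusted p = 0.00275, edgeR), 2.52 ± 0.24 on day 3 and 3.08 ± 0.25 on day 4, which is 8.45-fold. The day 2 value rests on the whole set of libraries: leaving out any of the 4 libraries compared, or fitting only the 16 4-OHT-treated libraries, gave adjusted p-values between 0.0167 and 0.0398. The day 3 controls lay apart, and without the second of them (33.0 CPM) the day 3 log2 fold change was 3.11, against 2.09 without the first. With H2-Q6 and H2-Q7 summed, the log2 fold changes were 1.41, 1.90 and 2.41 on days 2, 3 and 4, so that the value of the pair lay between those of its members on all 3 days. H2-Q8 and H2-Q9 were also planned for this sum, but no row carried these symbols in the annotation used. Where any reads of theirs were counted is not known.

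H2-Q4, which encodes Qb-1, was the most abundant Q gene. In deleted cells it was at 32.3 and 36.0 CPM on day 1, 212 and 211 on day 2, 536 and 504 on day 3, and 615 and 636 on day 4. Treated controls had 32.8 and 34.7, 133.8 and 117.2, 251 and 292, and 240 and 255 CPM, again without overlap from day 2 on. The differences were 0.75 ± 0.10, 0.94 ± 0.10 and 1.34 ± 0.10 on the log2 scale on days 2, 3 and 4. H2-Q5 was scarce, at 45.4 and 38.7 CPM against 14.0 and 14.9 CPM on day 4 (log2 fold change 1.54 ± 0.15).

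H2-M3, which presents peptides that begin with N-formyl methionine, as made by bacteria and mitochondria, had the narrowest range, with a highest level 5.24-fold its lowest. It was at 20.8 and 24.5 CPM on day 1, 66.8 and 72.6 on day 2, 96.6 and 90.6 on day 3, and 109.1 and 103.8 on day 4 in deleted cells. Treated controls had 21.8 and 24.6, 51.9 and 48.6, 67.0 and 68.9, and 54.7 and 63.7 CPM. Its log2 fold changes of 0.47 ± 0.08, 0.46 ± 0.08 and 0.85 ± 0.08 on days 2, 3 and 4 were the smallest of the 9 on each day but passed the test each time (adjusted p at most 8.28e-05, edgeR).

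**Figure D2:**
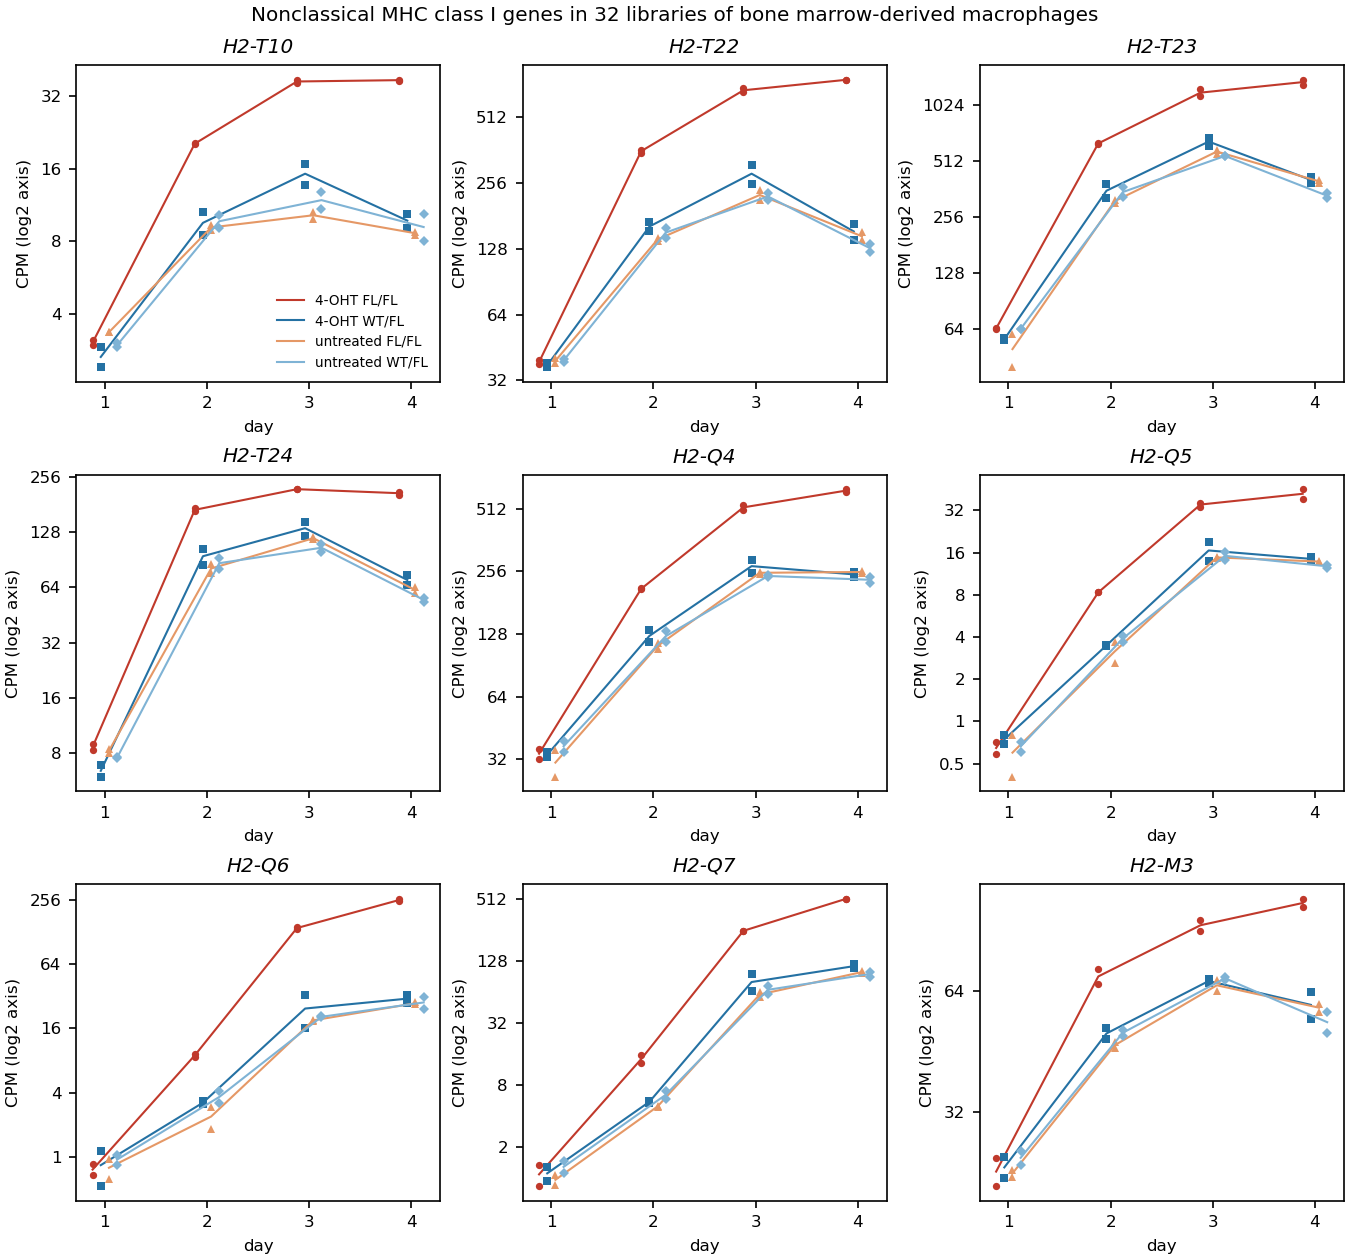
Level of each member (CPM, log2 axis) by day. Each point is 1 library and lines join the means of 2 libraries; red circles are deleted cells (4-OHT FL/FL), blue squares treated controls (4-OHT WT/FL), orange triangles untreated FL/FL and light blue diamonds untreated WT/FL. From day 2 on, the red points lie above those of the other 3 groups of the same day in all 9 panels.

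Counted together, 0 of the 9 genes differed between deleted cells and treated controls on day 1 at an adjusted p below 0.01, where 0.00655% of all tested genes were higher and 0.0131% lower. At an unadjusted p below 0.05 (edgeR), 1 member did (H2-T24), beside 308 of the 15257 tested genes, and DESeq2 called 0 members. On day 2 all 9 were higher, against 5.69% of all tested genes. The same held on day 3, against 6.69%, and on day 4, against 9.84%. Because the genes were chosen with earlier results of these data known, these counts were not tested against the shares. The 9 genes had a median log2 fold change of 0.02, 1.09, 1.09 and 1.75 on days 1 to 4, while the median of all tested genes lay between -0.04 and -0.01. When a log2 fold change above 1.5 was also required, 0 members passed on day 2 (0.498% of all tested genes were higher by this rule), 2 on day 3 (0.485%), namely H2-Q6 and H2-Q7, and 7 on day 4 (1.65%). The 2 members below that limit on day 4 were H2-Q4 and H2-M3.

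**Figure D3:**
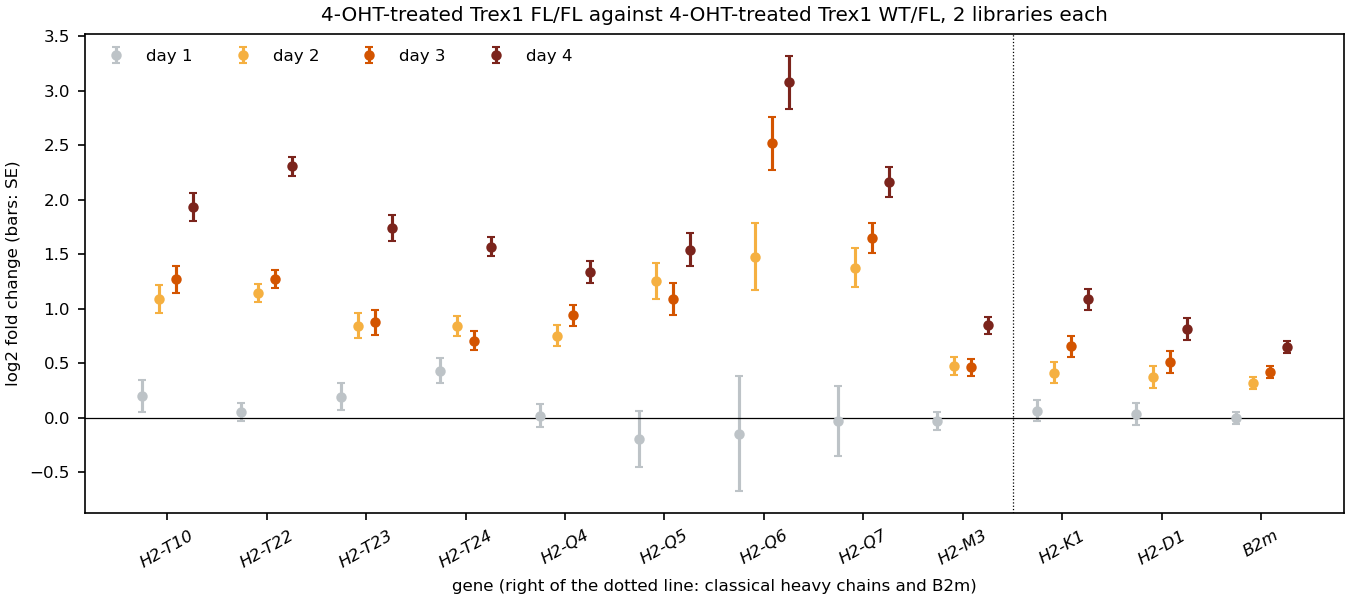
Log2 fold change of deleted cells (4-OHT FL/FL) against treated controls (4-OHT WT/FL), with 2 libraries per group, for the 9 members and, right of the dotted line, the classical genes H2-K1 and H2-D1 and B2m. Points are estimates and bars their SE; day 4 values range from 0.85 for H2-M3 to 3.08 for H2-Q6 among members.

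In the control comparisons no member passed the test. In untreated cells, 0 members differed between the genotypes on any day at an adjusted p below 0.01, beside 0% of all tested genes higher on days 1, 2 and 3 and 0.0131% on day 4. Their log2 fold changes there ranged from -0.61 (H2-Q6, day 2) to 0.26 (H2-T23, day 4). Above 0 were 2, 0, 4 and 7 of the 9 on days 1 to 4, with a median of -0.16 on day 2 (all tested genes -0.005). At an unadjusted p below 0.05 (edgeR), 2 members differed on day 1, 0 on days 2 and 3 and 2 on day 4. Of the 15257 tested genes, 1129, 588, 468 and 2414 did on days 1 to 4. DESeq2 called 0 members on each day. Exposure of WT/FL cells to 4-OHT gave 0 calls on any day as well (beside 0%, 0%, 0.0393% and 0.0524% of all tested genes higher on days 1 to 4), with log2 fold changes between -0.24 and 0.36. Of the 9 members, 1, 4, 8 and 9 were above 0 on days 1 to 4. Their medians were 0.25 and 0.18 on days 3 and 4, beside 0 and 0.007 for all tested genes. Here 0, 0, 4 and 3 members had an unadjusted p below 0.05 on days 1 to 4 (edgeR). Of the 15257 tested genes, 378, 530, 1281 and 1080 did. DESeq2 called 1 member, H2-T22, on day 3. The member nearest to the threshold was H2-T22 on day 3, at a log2 fold change of 0.35 ± 0.08 (adjusted p = 0.0493, edgeR).

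Deleted cells were also compared with untreated FL/FL cells. Here 0 members passed on day 1, where 0.0131% of all tested genes passed in either direction. At an unadjusted p below 0.05 (edgeR), 1 member differed on that day, beside 1068 of the 15257 tested genes, and DESeq2 called 0 members. All 9 passed on days 2, 3 and 4 and were higher, while 11.1%, 15.7% and 21.4% of all tested genes passed in either direction. The members' median was 1.15, 1.25 and 1.77 on the log2 scale on these days. H2-Q6 again had the largest value on day 4, at 3.22 ± 0.25, and H2-M3 the smallest, at 0.87 ± 0.08. This comparison uses the same deleted cells as that between the genotypes, so the values are not independent. Within untreated FL/FL cells, the library listed second on day 1 stood apart: H2-T23 was at 39.6 CPM in it and at 55.4 to 64.9 CPM in the other 7 libraries of that day, H2-Q4 at 26.4 against 32.3 to 39.2 CPM, and H2-K1 at 446 against 611 to 663 CPM. H2-T22 and H2-M3, at 40.3 and 22.9 CPM, were not low in it. Without this library 0 members passed on day 1 in either comparison that uses it. Without its partner, which leaves it as the sole library of its group, 1 member (H2-T23) passed in the comparison with deleted cells and 2 (H2-T23 and H2-Q4) in that with untreated WT/FL cells.

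The difference between these contrasts was tested directly as an interaction, the genotype difference after 4-OHT minus that in untreated cells of the same day. It was positive and passed the test for all 9 members on days 2, 3 and 4, against 3.55%, 2.65% and 5.15% of all tested genes, and for 0 on day 1 (0%). On day 2 the untreated difference was above 0 for 0 of the 9, which enlarged the interaction of that day. On day 1, 1 member had an unadjusted p below 0.05 in this interaction (H2-T23), beside 545 of the 15257 tested genes. The day 4 values ran from 0.72 ± 0.11 for H2-M3 to 3.10 ± 0.34 for H2-Q6.

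All 9 genes also rose with time in culture, in deleted cells and in the other 3 arms. From day 1 to day 2 every member rose in every arm at an adjusted p below 0.01, against 21.7% of all tested genes in deleted cells, 20.2% in treated controls, and 20.3% and 20.2% in untreated FL/FL and WT/FL cells. The median log2 change was 3.30 in deleted cells, 2.11 in treated controls, and 1.86 and 1.95 in untreated FL/FL and WT/FL cells. The steepest rise was that of H2-T24, by 4.29 ± 0.11 on the log2 scale in deleted cells and by 3.30 to 3.88 in the other 3 arms.

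From day 2 to day 3 the Q genes went on rising most. H2-Q7 rose by 4.13 ± 0.16 in deleted cells and by 3.39 to 3.85 in the other arms, and H2-Q6 by 3.97 ± 0.27 and by 2.51 to 3.00. H2-Q5 rose by 1.96 to 2.25 in the 4 arms, H2-Q4 by 0.96 to 1.30 and H2-M3 by 0.42 to 0.50. All 9 members passed in deleted cells (15.1% of all tested genes rose) and in treated controls (17.7%). Of untreated cells, 8 passed in FL/FL (18.7%) and 7 in WT/FL (17.1%). The exceptions were H2-T10 in both, with changes of 0.17 ± 0.13 and 0.29 ± 0.13, and H2-T24 in untreated WT/FL cells, with 0.28 ± 0.09.

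From day 3 to day 4, H2-T22, H2-T23 and H2-T24 fell in the 3 control arms. H2-T24 fell by 0.94 ± 0.09 on the log2 scale in each of them, H2-T22 by 0.63 to 0.88 and H2-T23 by 0.53 to 0.71. H2-T10 fell in treated controls, by 0.64 ± 0.13, and H2-M3 in untreated WT/FL cells, by 0.37 ± 0.08. In total 4 members fell in treated controls (5.93% of all tested genes fell), 3 in untreated FL/FL cells (7.18%) and 4 in untreated WT/FL cells (6.39%). In deleted cells 0 members fell at an adjusted p below 0.01, against 5.70% of all tested genes, and 0 at an unadjusted p below 0.05 (edgeR), and the changes of H2-T22, H2-T23 and H2-T24 were 0.16 ± 0.08, 0.19 ± 0.12 and -0.07 ± 0.09. H2-Q7 went on to rise in these cells, by 1.03 ± 0.14 (1 of 9 members against 3.64% of all tested genes), and in untreated FL/FL cells, by 0.72 ± 0.14 (1 of 9 against 6.42%). In treated controls and untreated WT/FL cells 0 members rose at that threshold, against 6.23% and 5.86%, although 1 in each, H2-Q7, had an unadjusted p below 0.05 (0.51 in both, adjusted p = 0.0122 and 0.0138, edgeR).

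The growth of the genotype difference was tested as the change of the 4-OHT contrast from each day to the next. From day 1 to day 2 it grew for H2-T10 (0.89 ± 0.19 on the log2 scale), H2-T22 (1.10 ± 0.12), H2-Q4 (0.74 ± 0.14), H2-Q5 (1.46 ± 0.31) and H2-M3 (0.51 ± 0.11), which are 5 of 9 against 2.67% of all tested genes. From day 2 to day 3 it changed for 0 members, beside 0.328% of all tested genes with a growing difference. In this step 1 member reached an unadjusted p below 0.05 (edgeR), beside 2258 of the 15257 tested genes, and the members' estimates lay between -0.17 and 1.04. From day 3 to day 4 it grew for H2-T22 (1.04 ± 0.12), H2-T23 (0.87 ± 0.16) and H2-T24 (0.86 ± 0.13), 3 of 9 against 1.67%. The largest day 4 estimates among the Q genes were 0.56 ± 0.33 for H2-Q6 and 0.51 ± 0.19 for H2-Q7, which did not pass, and whether T and Q genes differ in this step was not tested.

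**Figure D4:**
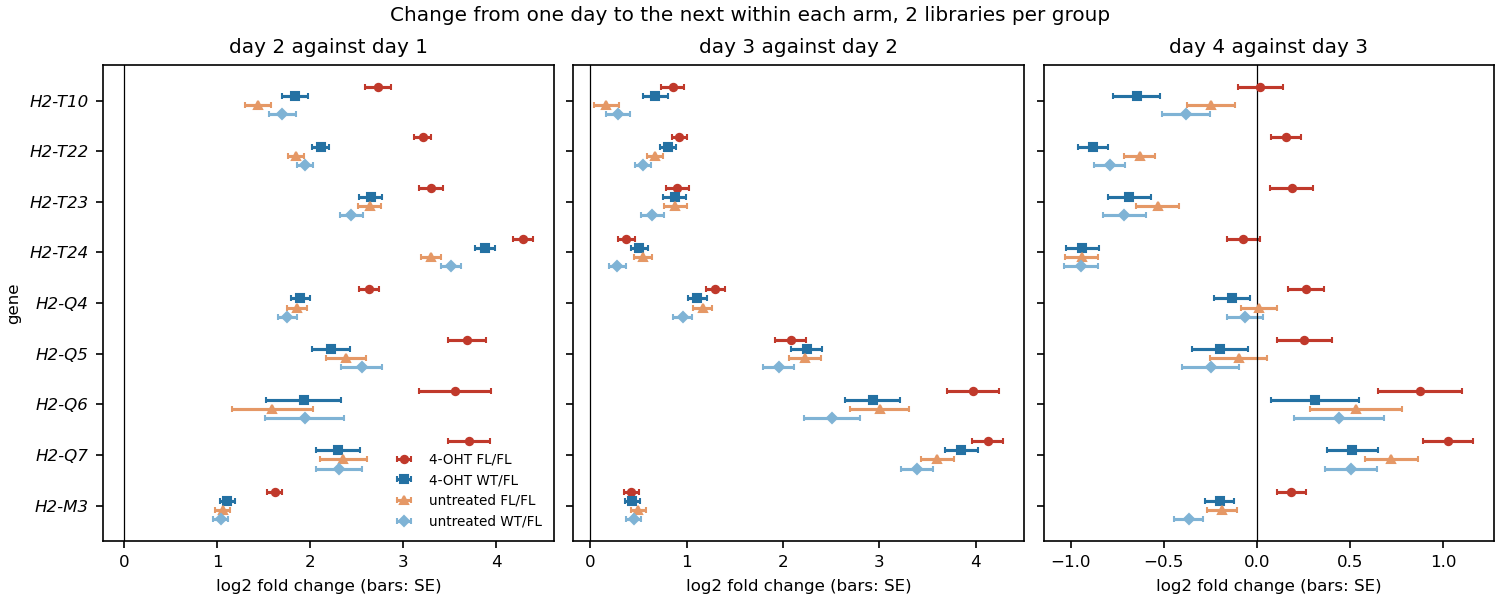
Log2 fold change of each member against the day before in each of the 4 arms (2 libraries per group, bars are SE, colors and symbols as labelled). In the right panel H2-T22, H2-T23 and H2-T24 lie left of 0 in the 3 control arms, at -0.94 to -0.53, and near 0 in deleted cells.

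In all 9 genes the highest group was deleted cells, on day 4 for 8 of them and on day 3 for H2-T24. This group was clear of the next, again deleted cells, in 8 genes, and overlapped it for H2-T10, whose libraries on days 3 and 4 could not be ordered. Further down, neighbouring groups often overlapped: of the 15 pairs of neighbours in the order of 16 groups, between 4 (H2-T24) and 9 (H2-Q4 and H2-M3) did. Added over the 9 genes, the members reached 3935 and 3862 CPM in deleted cells on day 4 and 1050 and 1155 CPM in treated controls. Set against the summed level of H2-K1 and H2-D1, this came to 20.2% and 20.3% in deleted cells and to 10.47% and 10.98% in treated controls. The means in deleted cells and treated controls were 9.85% and 9.48% on day 1, 24.5% and 17.3% on day 2, and 19.5% and 14.1% on day 3. In both, the ratio was thus highest on day 2. Within the summed level per kilobase on day 4, H2-Q6 made up 6.67% in deleted cells and 2.72% in treated controls, while H2-M3 held 5.18% and 9.93%.

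**Figure D5:**
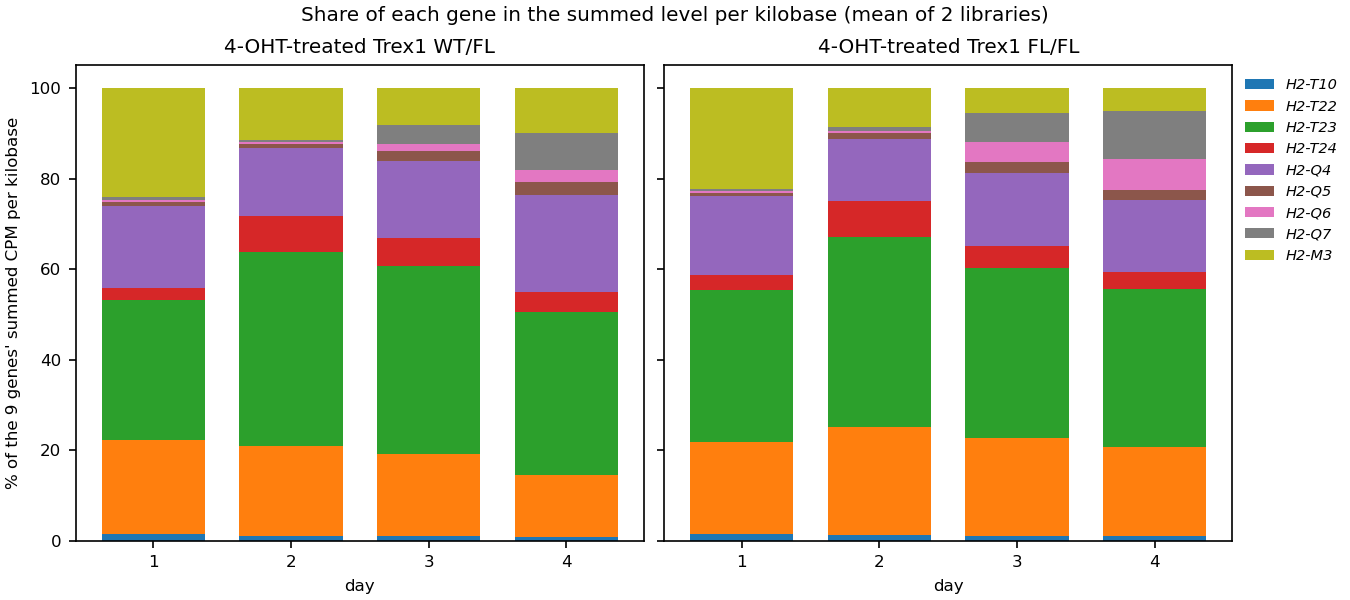
Share of each member in the summed CPM per kilobase of the 9 genes (mean of 2 libraries) by day, in treated controls (left) and deleted cells (right). H2-T23 is the largest share in each bar, and H2-Q6 and H2-Q7 together appear from day 3 on.

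The classical genes and B2m moved in the same direction as the members. After 4-OHT, the log2 fold change between the genotypes was 0.41 ± 0.10, 0.65 ± 0.10 and 1.08 ± 0.10 for H2-K1 on days 2, 3 and 4 and 0.32 ± 0.05, 0.42 ± 0.05 and 0.65 ± 0.05 for B2m, all with adjusted p below the threshold (at most 0.00467, edgeR). H2-D1 passed on day 3 (0.51 ± 0.10) and day 4 (0.81 ± 0.10) but not on day 2 (0.37 ± 0.10, adjusted p = 0.0177). These estimates were below those of 8 of the 9 members on each of these days. H2-M3, the exception, was above all 3 genes on day 2, but below H2-K1 and H2-D1 on day 3 and below H2-K1 on day 4, and the differences between genes were not tested. Of 22 genes of class I assembly and its regulation, which included H2-K1, H2-D1 and B2m, 15 were higher on day 2, 14 on day 3 and 16 on day 4, beside 5.69%, 6.69% and 9.84% of all tested genes. On these days 0, 0 and 1 were lower, beside 2.48%, 5.42% and 11.7%. Its members Tap1, a subunit of the peptide transporter, Psmb9, an immunoproteasome subunit, and Nlrc5, the transactivator of class I genes, rose by 1.48, 1.42 and 1.21 on the log2 scale on day 4. The lower gene was the chaperone Calr, at a log2 fold change of -0.17 on day 4 and of 0.22 on day 2, when it was among the higher genes.

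Other nonclassical and class I-like genes gave few calls. Of 31 listed, 26 were in the table and 9 were tested, and most of the untested had 0 counts throughout, among them H2-M5 and H2-M9. On each of days 2, 3 and 4, 1 of the 9 was higher, namely Mill2 (0.75, 0.70 and 1.21 on the log2 scale). Of all tested genes 5.69%, 6.69% and 9.84% were higher, the last a share near that of this list. On these days 1, 2 and 3 of the 9 were lower, beside 2.48%, 5.42% and 11.7% of all tested genes. On day 4 the lower ones were Cd1d1, which presents lipids to NKT cells (-0.67), Fcgrt, the neonatal Fc receptor (-0.51), and Procr (-0.85). Of 4 tested ligands of the activating receptor NKG2D, Raet1d and Raet1e were higher on day 3 (0.90 and 0.68), beside 6.69% of all tested genes. They did not pass on day 2 (0.07 and 0.13) or day 4 (-0.01 and -0.08). Ulbp1 was lower on day 2 (-0.57) and day 4 (-0.76), beside 2.48% and 11.7% of all tested genes. Its day 3 value of -0.13 did not pass. Among 16 genes of class I receptors, 8 were tested, of which 1, 1 and 3 were higher on days 2, 3 and 4 and 0 lower. Of all tested genes 5.69%, 6.69% and 9.84% were higher and 2.48%, 5.42% and 11.7% lower on these days. Klra2, a Ly49 family gene, was higher on all 3 days (1.16, 1.91 and 2.79) and stood at 28.7 and 24.0 against 4.29 and 3.29 CPM on day 4. The others higher on day 4 were Lilrb4b (0.67) and Pirb, an inhibitory receptor for class I on myeloid cells (0.23). The genes of CD94/NKG2A were almost silent, with at most 27 counts of Klrd1 and 3 of Klrc1 in any library.

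The time courses of most members had close neighbours among all tested genes. Likeness was measured as the root mean square difference between the 16 group means of log2 CPM, each gene centred on its own mean. The gene most like H2-M3 was Slc31a2 (0.10 log2 units), that most like H2-Q4 was Tmcc3 (0.13), that most like H2-T22 was Fcgr1 (0.17) and that most like H2-T24 was Oasl2 (0.17). For H2-T23 it was Klra3 (0.20), which has at most 55 counts in a library, for H2-T10 Themis2 (0.22), with Tap1 in the third place (0.24), and for H2-Q5 Il18bp (0.27). H2-Q6 and H2-Q7 had no comparably close gene. Their nearest non-member was C4b in both cases, at 0.74 and 0.85 log2 units, and they lay 0.56 from each other. The measure was not scaled to a gene's range, which was widest for this pair. The median difference to all tested genes was 2.58 for H2-Q6 and 2.96 for H2-Q7, beside 0.78 for H2-M3. Among members, H2-T10 and H2-T22 were nearest to each other (0.25), and H2-M3 and H2-Q7 farthest apart (2.34). The pairs H2-T10 and H2-T22, and H2-Q6 and H2-Q7, are also pairs that share sequence, whose part in their likeness was not tested.

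Sequences upstream of the start site are shown because the members moved together and class I promoters are known to carry an interferon response element close to the start. The RefSeq promoter table (GRCm38.p6) matched 6 of the 9 genes, namely H2-T22, H2-T23, H2-Q4, H2-Q6, H2-Q7 and H2-M3. H2-T10, H2-T24 and H2-Q5 were not in it. The 250 bases before the start of 5 of them are printed 5′ to 3′ in the direction of the gene, with each match to AANNGAAA, a core bound by interferon regulatory factors, in capitals (both strands were searched, and a match on the opposite strand begins with TTTC). They lie at chr17:36042743-36042992 (H2-T22, minus strand), chr17:36032702-36032951 (H2-T23, minus strand), chr17:35424600-35424849 (H2-Q6, plus strand), chr17:35438905-35439154 (H2-Q7, plus strand) and chr17:37269984-37270233 (H2-M3, plus strand).
H2-T22: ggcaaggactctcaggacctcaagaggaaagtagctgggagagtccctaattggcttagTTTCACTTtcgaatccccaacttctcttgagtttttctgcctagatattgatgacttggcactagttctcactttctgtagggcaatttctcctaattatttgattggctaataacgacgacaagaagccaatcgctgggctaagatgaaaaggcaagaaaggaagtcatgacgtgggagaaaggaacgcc
H2-T23: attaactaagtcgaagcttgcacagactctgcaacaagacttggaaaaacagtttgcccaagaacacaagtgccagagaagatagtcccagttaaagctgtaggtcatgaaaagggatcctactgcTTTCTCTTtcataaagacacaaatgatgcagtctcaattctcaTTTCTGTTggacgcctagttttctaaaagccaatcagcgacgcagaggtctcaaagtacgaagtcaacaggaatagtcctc
H2-Q6: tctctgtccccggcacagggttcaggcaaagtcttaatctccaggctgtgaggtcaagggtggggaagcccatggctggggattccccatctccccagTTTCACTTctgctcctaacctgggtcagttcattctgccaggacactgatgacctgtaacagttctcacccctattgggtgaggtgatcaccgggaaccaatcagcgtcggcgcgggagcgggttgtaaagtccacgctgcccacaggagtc
H2-Q7: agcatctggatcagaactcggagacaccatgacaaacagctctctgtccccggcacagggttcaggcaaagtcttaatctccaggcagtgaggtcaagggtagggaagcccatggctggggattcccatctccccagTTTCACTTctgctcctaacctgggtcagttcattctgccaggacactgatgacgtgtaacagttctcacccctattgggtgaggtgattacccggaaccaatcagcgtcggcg
H2-M3: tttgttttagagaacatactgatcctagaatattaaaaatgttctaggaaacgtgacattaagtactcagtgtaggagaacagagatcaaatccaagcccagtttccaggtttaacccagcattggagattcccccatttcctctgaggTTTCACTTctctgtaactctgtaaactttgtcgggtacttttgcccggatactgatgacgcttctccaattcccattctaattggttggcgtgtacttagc

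The element AANNGAAA was found on either strand in 6 of 6 of these promoters and in 21.3% of the 32841 promoters of the table. In H2-T22, H2-Q4, H2-Q6, H2-Q7 and H2-M3 it read TTTCACTT, the same letters as in H2-K1 and H2-D1, and began 191, 153, 152, 113 and 101 bases before the start. H2-T23 lacked these letters and held TTTCTCTT, which began 124 bases before the start, and TTTCTGTT, which began 81 bases before it. A tandem form, GAAA repeated after a gap of 2 bases, which overlaps AANNGAAA, was in H2-T22 and H2-T23, 2 of 6, against 2.98% of all promoters. An NF-κB motif, GGG and CC with 5 bases between them, was in 5 of 6, against 45.8%, and CCAAT in 6 of 6, against 33.9%. TGACGC, a core of the site through which NLRC5 is recruited, was in 1 of 6, H2-M3, against 6.12%. Only these exact letters were searched. TGACGT, which differs in the last letter, can be read in the H2-Q7 and H2-T22 sequences above and was not counted. The H2-Q6 and H2-Q7 sequences were identical at 205 of 210 aligned bases (97.6%) and H2-Q4 and H2-Q6 at 210 of 232 (90.5%). The genotype difference on day 4 was 1.34 for H2-Q4, 2.16 for H2-Q7 and 3.08 for H2-Q6 on the log2 scale. Whether these differences relate to the promoter sequences was not tested, and the division of reads between these genes is uncertain. A match of letters describes the sequence and does not show binding. The 6 promoters belong to related genes and are not independent, so the motif counts were not tested against the shares of all promoters.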

How the data were processed

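RNA from 32 libraries of mouse BMDMs was sequenced by the authors. Per the labels and the methods, the reads were checked with FastQC (version 11.9 per the processing notes), quantified with Salmon (version not given in the sources used here), summed per gene with tximport and referred to GRCm39. The deposited table holds 1 estimated count per gene and library, made by the authors with these tools and not normalized, and its values were already whole numbers, so none was rounded here. The authors' annotation release is not given in the sources used here, and 51048 of 54281 identifiers matched GENCODE vM39.

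Columns were assigned to groups through the labels, which give no replicate number. The 9 members and the gene lists were chosen with earlier results of these data known. The test was the quasi-likelihood test of edgeR 4.0.16, run in R 4.3.3 (TMM factors, filterByExpr with a minimum count of 10, glmQLFit with robust estimation, a mean for each of 16 groups, 16 residual degrees of freedom), with Benjamini-Hochberg adjustment over 15257 genes and a threshold of 0.01. CPM use TMM-scaled totals, and levels between genes were divided by the length of all annotated exons. Named were the members, Trex1, H2-K1, H2-D1, B2m, up to 6 list genes per list by the lowest p among those past the study's thresholds (adjusted p below 0.01, absolute log2 fold change above 1.5) on day 4, and 3 genes of like pattern per member. Klra2 was the sole list gene of that kind, and the choice of the other list genes in the text was made after seeing their values. The edgeR test was tried on simulated counts of 11592 genes for the day 4 genotype comparison, where it recovered 176 of 200 genes that had been shifted by 1 on the log2 scale and called 3 others. Counting error limits only the lowest values, and PCR duplicates were not marked by molecular identifiers. As alternatives, the scaling was changed to RLE or upper-quartile factors, the tool to DESeq2 1.42.0 and the filter to 2 others, besides fits of 16 or 4 libraries, other thresholds, summed copies, the interaction with untreated cells, and leaving out each library compared. Promoter sequences are from RefSeq, GRCm38.p6, and share no coordinates with the counts. In no group did the libraries agree within sampling noise (chi-square per degree of freedom of 9.55 or more), so none was counted as a duplicate.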

Additional observations from a re-analysis of the deposited data

Results flagged for a closer look

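The difference between the genotypes depended on 4-OHT in all 9 genes from day 2 on, tested as an interaction (edgeR quasi-likelihood test, 2 libraries per group, log2 scale). On day 2 it was 1.18 for H2-T10, 1.25 for H2-T22, 1.01 for H2-T23, 0.94 for H2-T24, 0.91 for H2-Q4, 1.57 for H2-Q5, 2.08 for H2-Q6, 1.75 for H2-Q7 and 0.58 for H2-M3. On day 3 it was 1.48, 1.25, 0.79, 0.53, 0.89, 1.13, 2.63, 1.80 and 0.52 in the same order of genes. On day 4 it was 2.01, 2.12, 1.49, 1.40, 1.21, 1.43, 3.10, 2.10 and 0.72. The weakest of these 27 calls was H2-Q6 on day 2, with an adjusted p of 0.00917.

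The genotype difference after 4-OHT also changed between days. It grew from day 1 to day 2 by 0.89 for H2-T10, 1.10 for H2-T22, 0.74 for H2-Q4, 1.46 for H2-Q5 and 0.51 for H2-M3. It grew from day 3 to day 4 by 1.04 for H2-T22, 0.87 for H2-T23 and 0.86 for H2-T24. The day 4 step coincided with lower levels of H2-T22, H2-T23 and H2-T24 in 4-OHT-treated Trex1 WT/FL cells on day 4 than on day 3, so that these differences hold a change in the controls as well. Groups of 2 libraries were too small for a test of single libraries.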

How the results depend on the processing

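No paired analysis was possible because neither the labels nor the columns carry replicate numbers. The library titles are numbered consecutively over days 1 to 4 within a genotype and treatment. Within a genotype, such runs of untreated and 4-OHT-treated libraries alternate. Libraries of different days and of both treatments may therefore share a cell preparation, and a fit with such blocks was not run. The titles name no animal or culture, and which libraries belong together is not stated. The fit took all 32 libraries as independent, with 16 residual degrees of freedom. Dependence between libraries, which would bear on the contrasts of treatment, day and interaction, was not tested. Of 196 recomputed member counts, 181 stayed within 1.5 times the original, and all 9 members were called between the 4-OHT-treated genotypes on day 4 under every alternative but the thresholds of the study, which left 7. With those thresholds, 0 and 2 members passed on days 2 and 3 in that comparison, and 2 and 4 of 9 against untreated Trex1 FL/FL cells. Without the filter on low counts, 1 member was called on day 1 in the 4-OHT genotype comparison (H2-T24), 1 in 4-OHT-treated against untreated Trex1 FL/FL cells and 1 between untreated genotypes, 1 between untreated genotypes on day 2, and 2 on day 3 and 2 on day 4 in Trex1 WT/FL cells after 4-OHT, where none was called before. DESeq2, and an adjusted p below 0.05, each called 1 member in Trex1 WT/FL cells on day 3. Leaving out 1 library gave 0 to 1 calls there (1 without the first 4-OHT-treated library), 0 to 1 for 4-OHT-treated against untreated Trex1 FL/FL cells on day 1 and 0 to 2 between untreated genotypes on day 1.

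Of 448 recomputed log2 fold changes between the 4-OHT-treated genotypes, 429 kept their sign and call. The 11 that changed sign were on day 1, where no member had passed. They were H2-Q4 (-0.064 to 0.092 on leaving out a library), H2-Q6 (-0.59 to 0.52), H2-Q7 (-0.43 to 0.27) and H2-M3 (-0.16 to 0.077), and with the interaction H2-Q6 (0.11), H2-Q7 (0.38) and H2-M3 (0.095). The 7 that lost the call were H2-Q6 on day 2, with 5 of them, and H2-Q6 (adjusted p = 0.102) and H2-Q7 (adjusted p = 0.0368) on day 3 in a fit of 4 libraries, which has fewer samples. The causes of the other changes were not tested. The depth (35120505 counts or more) limits H2-Q5, H2-Q6 and H2-Q7 on day 1, and with 2 libraries a group small differences can be missed.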
